A study of Homo sapiens with 9 samples.

Results

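SAMSN1, LCP1 and SRGN are genes best known from blood cells. They were read here in MCF10A, a non-malignant human mammary epithelial line, and in 2 lines derived from it, together with the closest relatives of SAMSN1 (SASH1 and SASH3) and of LCP1 (PLS1 and PLS3). These 7 genes were taken by symbol from a table of raw counts for 60199 symbols, and all 7 had a row. SAMSN1, LCP1 and SRGN were picked because they stood among the largest rises when the same libraries were compared before, so their differences between the lines are given as a description, with a standard error (SE) and no test. The 4 relatives were picked by gene family and were tested wherever they passed the filter on low counts.

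The comparison took in 3 lines with 3 libraries each, numbered as replicates in the sample titles. CT was parental MCF10A grown without added BMP2 or IL6. MC26 came from unsorted MCF10A cells held for a long time in BMP2 and IL6, a bone morphogenetic protein and an interleukin. M1B26 came from MCF10A cells selected by sorting on BMPR1B, a receptor of BMP2, and exposed to the same pair, and the methods describe it as grown from colonies picked in soft agar. All 3 lines share the MCF10A background, and the media of MC26 and M1B26, but not of CT, contained BMP2 and IL6, so the line and the cytokines in its medium cannot be told apart. The methods put the transformation of the sorted cells at a few weeks of exposure, and exact durations are not used here. The doses in the labels and the methods differ and are not used. How the 3 M1B26 libraries relate to the picked colonies is not given either.

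SAMSN1 encodes HACS1 (also SLY2), an adaptor of the SLY family with an SH3 and a SAM domain, studied mainly in B cells and mast cells. LCP1 encodes L-plastin, the plastin of leukocytes, which cross-links actin filaments into bundles and which is also found in many carcinoma cells. SRGN encodes serglycin, a small proteoglycan whose core protein carries glycosaminoglycan chains on serine and glycine repeats and which packs proteases and other cargo in the granules of mast cells and other leukocytes. Epithelial cells normally rely on other members of these families, such as T-plastin (PLS3) and, for proteoglycans, the syndecans.

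Poly-A RNA was sequenced in paired-end mode, and total counts per library ran from 21425118 to 80076597, with the shallowest and the deepest library both in CT. Levels are given as CPM, counts scaled by TMM to a common library size of 1000000, in which 1 count stood for 0.0122 to 0.0437 CPM. Markers of mammary epithelium were present in every library, with a summed level of 7400 to 10500 CPM. Of the 10 listed genes, 10 had more than 3 counts in at least 1 library and 9 were tested. KRT19 did not pass the filter on low counts. The basal keratin gene KRT5 was at 6583 ± 767 CPM in CT, 6262 ± 611 for MC26 and 4922 ± 293 for M1B26 (mean ± SD, n = 3), whereas the epithelial adhesion gene EPCAM was at 70.4 ± 4.45, 14.8 ± 3.84 and 72.1 ± 11.9 CPM in the same order. A gene was called changed where its p in the edgeR quasi-likelihood test, adjusted by Benjamini-Hochberg, lay under 0.05. In MC26 against CT 38.7% of the 15717 tested genes passed, 18.8% higher and 19.9% lower. In M1B26 against CT 48.9% were called, 25.2% higher and 23.7% lower, and in M1B26 against MC26 39.5% were, 21.2% higher and 18.4% lower. The CPM of the lines did not overlap for 50.3%, 59.0% and 53.5% of tested genes in these comparisons. As a share of the calls, those higher made up 48.5%, 51.5% and 53.5%, and 35.8%, 39.6% and 50.5% where libraries were scaled by their total counts alone.

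SAMSN1 lies on chr21:14485228-14658821 (minus strand, GRCh38). It had 7, 4 and 12 counts in the 3 CT libraries, 243, 430 and 531 in MC26 and 2747, 3189 and 3821 in M1B26. In CPM these were 0.10, 0.175 and 0.146 in CT, 6.04, 11.2 and 12.5 for MC26 and 61.9, 75.4 and 70.5 for M1B26. The 3 lines formed 3 steps with no overlap, and MC26 was the most uneven of them, its highest library being 2.07 times its lowest. The mean level was 0.140 ± 0.0377 CPM in CT, 9.92 ± 3.42 for MC26 and 69.3 ± 6.86 for M1B26 (SD, n = 3). The fitted log2 fold change was 6.21 (SE 0.36) for MC26 and 9.01 (SE 0.34) for M1B26 against CT, or 74.0-fold and 516-fold. Between the derived lines it was 2.80 (SE 0.21), 6.98-fold higher in M1B26. By fold change SAMSN1 stood 17th highest of the 15717 genes in MC26 and 9th highest in M1B26 against CT. Because the CT libraries held 23 counts in all, the size of both folds against CT rests on few reads, although all 3 libraries were above the 3 counts taken as the limit of detection. In bulk RNA, fewer cells that express a gene and less RNA per cell cannot be told apart.

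SASH1, a tumour suppressor candidate of epithelia, was the leading SLY family transcript of CT. It had 30.9, 31.9 and 30.7 CPM in CT, 25.1, 29.4 and 30.04 for MC26 and 29.4, 25.0 and 31.9 for M1B26, and the M1B26 range overlapped those of both other lines, while the highest MC26 library lay just below the lowest of CT. SASH1 was not called in any comparison. Its log2 fold change was -0.14 in MC26 (95% interval -0.36 to 0.07, edgeR adjusted p = 0.278) and -0.11 in M1B26 (-0.33 to 0.10, edgeR adjusted p = 0.365) against CT. Between M1B26 and MC26 it was 0.03 (-0.19 to 0.25, edgeR adjusted p = 0.836). SASH3, the lymphocyte member known as SLY1, had 0 counts in all 9 libraries and was not tested. With 3 counts as the limit, this allows at most 0.0172 CPM over the CT libraries, 0.0248 over MC26 and 0.0213 over M1B26.

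To compare levels between genes, CPM were divided by exonic length in kilobases. On this length-scaled level the SLY family summed to 3.14 ± 0.069 in CT, 4.73 ± 0.926 for MC26 and 16.2 ± 1.19 for M1B26 (CPM per kilobase, SD, n = 3). SAMSN1 held 0.622%, 1.05% and 0.912% of that sum in the CT libraries, 31.7%, 42.4% and 44.5% in MC26 and 80.3%, 85.3% and 81.0% in M1B26. The leading SLY transcript was thus SASH1 in the 3 CT and 3 MC26 libraries and SAMSN1 in the 3 M1B26 libraries, at a length-scaled SASH1 level of 3.11 ± 0.0638 in CT and 2.87 ± 0.346 in M1B26.

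LCP1 lies on chr13:46125920-46211871 (minus strand, GRCh38). It had 1075, 419 and 1248 counts in CT, 13422, 13280 and 13703 for MC26 and 15339, 14818 and 17045 for M1B26. These were 15.4, 18.3 and 15.2 CPM in CT, 333.6, 347.1 and 322.3 for MC26 and 345.7, 350.6 and 314.7 for M1B26. Both derived lines lay far above CT, and they overlapped each other. LCP1 was also the most even of the 3 genes, with a coefficient of variation of 3.72% in MC26 and 5.78% in M1B26. The log2 fold change was 4.37 (SE 0.09) in MC26 and 4.38 (SE 0.09) in M1B26 against CT, 20.7-fold and 20.9-fold, and 0.01 (SE 0.08) between the derived lines. LCP1 stood 51st highest of all tested genes in MC26 and 65th highest in M1B26 against CT.

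**Figure D1:**
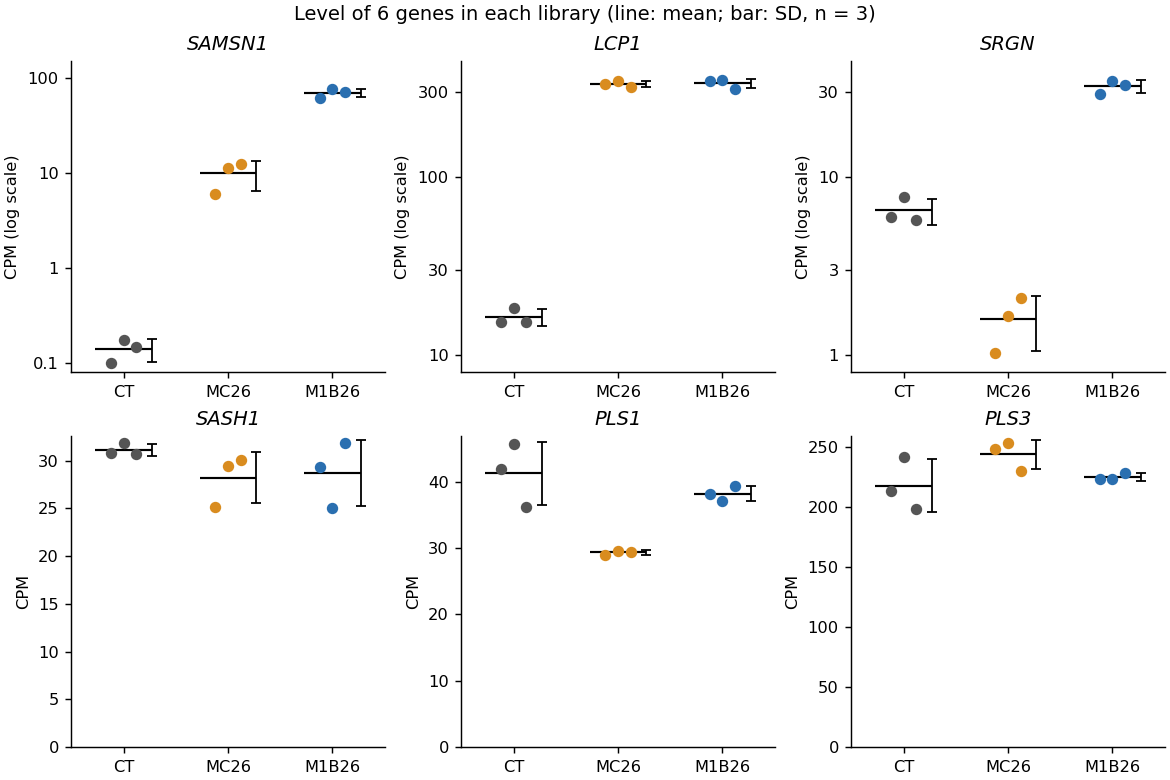
CPM of SAMSN1, LCP1 and SRGN (top, log axes) and of SASH1, PLS1 and PLS3 (bottom, linear axes from 0) by line; points are the 3 libraries of each line, horizontal lines the means and bars the SD. SAMSN1 stepped up from CT over MC26 to M1B26, LCP1 overlapped between the derived lines, and SRGN was lowest in MC26 (1.02 to 2.09 CPM) and highest in M1B26 (29.5 to 34.9 CPM).

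Reads of close paralogs can be assigned to the wrong gene, so the plastin transcripts were compared base by base. A coding stretch of exon 5 is shown for all 3 because it holds the longest exact run between LCP1 and PLS3. It is given 5′ to 3′ along the gene, GRCh38, with capitals for bases that the 3 genes do not all share.
LCP1, chr13:46156489-46156548, minus strand: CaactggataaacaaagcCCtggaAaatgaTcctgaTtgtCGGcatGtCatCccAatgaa
PLS1, chr3:142676179-142676238, plus strand: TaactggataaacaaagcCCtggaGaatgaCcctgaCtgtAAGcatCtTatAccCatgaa
PLS3, chrX:115629857-115629916, plus strand: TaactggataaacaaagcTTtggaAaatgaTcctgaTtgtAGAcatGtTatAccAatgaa
In these 60 bases 13 positions differed among the genes, and LCP1 differed from PLS1 at 10 and from PLS3 at 7. Over the whole transcripts the longest exact run was 23 bases between LCP1 and PLS1, 20 between LCP1 and PLS3 and 26 between PLS1 and PLS3. No word of 31 bases was shared by any of these pairs, nor by SAMSN1, SASH1 and SASH3, whose longest shared run was 14 bases.

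PLS1, the plastin of microvilli in gut and kidney epithelium, was the relative that changed. It had 42.0, 45.7 and 36.2 CPM in CT, 29.0, 29.6 and 29.5 for MC26 and 38.2, 37.1 and 39.4 for M1B26. All MC26 libraries lay below all libraries of the other lines, while CT and M1B26 overlapped. PLS1 fell in MC26 against CT by 0.49 on the log2 scale (SE 0.08, edgeR adjusted p = 0.00105) and was higher in M1B26 than in MC26 by 0.38 (SE 0.08, edgeR adjusted p = 0.00451). Against CT its log2 fold change in M1B26 was -0.11 (95% interval -0.29 to 0.08, edgeR adjusted p = 0.314).

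PLS3, T-plastin of epithelial and other solid tissues, was the most abundant plastin transcript of CT. It had 213.3, 241.8 and 198.3 CPM in CT, 248.0, 253.3 and 230.0 for MC26 and 223.0, 222.9 and 228.7 for M1B26. CT overlapped both derived lines, whereas all M1B26 libraries lay below all of MC26. PLS3 was not called in any comparison, with a log2 fold change of 0.16 in MC26 (95% interval -0.01 to 0.33, edgeR adjusted p = 0.12) and 0.05 in M1B26 (-0.12 to 0.22, edgeR adjusted p = 0.644) against CT and of -0.12 between them (-0.29 to 0.05, edgeR adjusted p = 0.257). Leaving out the shallowest library, CT replicate 2, raised its change in MC26 to 0.25 with an edgeR adjusted p = 0.013. Of the 3 relatives that could be tested, 1 was called in MC26 against CT, 0 in M1B26 against CT and 1 in M1B26 against MC26, beside the 38.7%, 48.9% and 39.5% of all tested genes.

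Per kilobase of exon, the plastin sum was 64.2 ± 6.59 in CT, 131.0 ± 5.35 for MC26 and 128.6 ± 2.82 for M1B26. LCP1 held 5.00% ± 0.180 of it in CT, 50.3% ± 0.414 for MC26 and 51.6% ± 1.87 for M1B26 (SD, n = 3). PLS3 held 82.9% ± 0.247, 45.5% ± 0.563 and 42.8% ± 1.59 in the same order. The leading plastin transcript was PLS3 in all CT libraries and LCP1 in all libraries of the derived lines. The length-scaled level of PLS3 itself was 53.2 ± 5.40, 59.6 ± 2.99 and 54.95 ± 0.821, and that of LCP1 3.21 ± 0.342, 65.9 ± 2.45 and 66.4 ± 3.84.

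**Figure D2:**
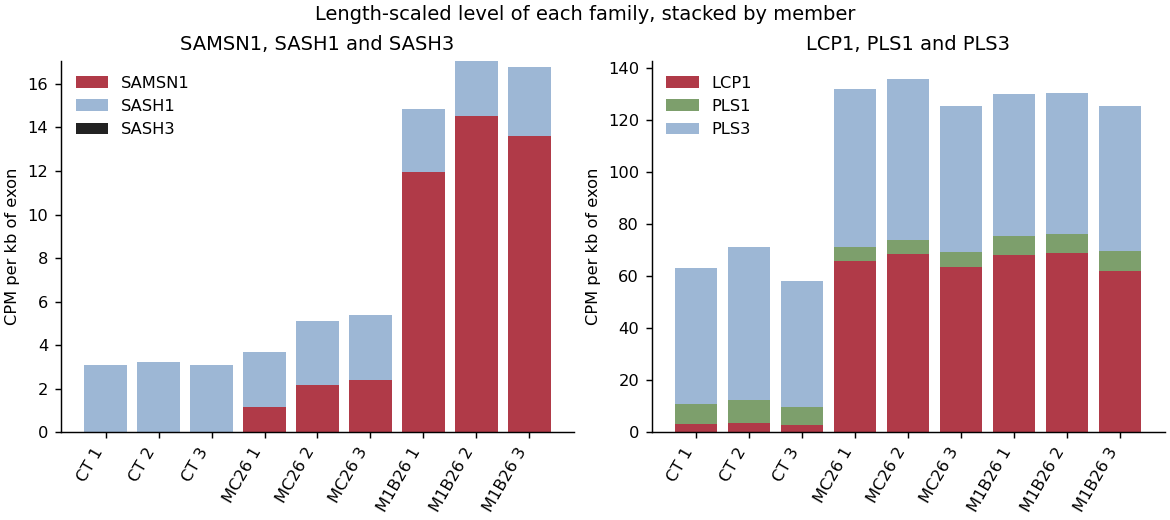
Stacked levels in CPM per kilobase of exon of the SLY family genes (SAMSN1, SASH1, SASH3) and the plastins (LCP1, PLS1, PLS3) in each of the 9 libraries. The bars of the derived lines are taller through SAMSN1, which made up 80.3% to 85.3% of the SLY sum in M1B26, and through LCP1, about as much as PLS3 in MC26 and M1B26.

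SRGN lies on chr10:69088103-69104805 (plus strand, GRCh38) and behaved unlike the other 2 genes. It had 418, 177 and 472 counts in CT, 41, 63 and 89 for MC26 and 1307, 1474 and 1799 for M1B26. These were 5.97, 7.73 and 5.76 CPM in CT, 1.02, 1.65 and 2.09 for MC26 and 29.5, 34.9 and 33.2 for M1B26. The lines did not overlap, with CT in the middle, MC26 lowest and M1B26 highest, and MC26 spread the most, by 2.05 times from its lowest to its highest library. MC26 replicate 1 was the lowest and MC26 replicate 3 the highest of that line for both SRGN and SAMSN1. SRGN was 3.997-fold lower in MC26 than in CT (log2 fold change -2.0, SE 0.21) and 5.11-fold higher in M1B26 than in CT (2.35, SE 0.17). Between the derived lines the difference was 20.4-fold (4.35, SE 0.20). SRGN stood 259th highest of the tested genes in M1B26 against CT and 55th highest in M1B26 against MC26, but 416th from the lowest in MC26 against CT.

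The stretch of SRGN exon 3 that carries the chain attachment repeat is shown because it is what makes serglycin a proteoglycan. It is chr10:69103923-69103994, plus strand, GRCh38, with capitals for 6 serine and glycine codon pairs in a row, out of 8 such pairs in the 158 codons.
SRGN: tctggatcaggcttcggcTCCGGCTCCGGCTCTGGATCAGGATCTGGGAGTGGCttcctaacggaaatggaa

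Serglycin chains are built by the same enzymes as those of other proteoglycans, so the other cores and the chain synthesis genes were read beside it. Of 30 listed core genes 23 were tested. In MC26 against CT 4 rose and 5 fell, in M1B26 against CT 5 rose and 11 fell, and in M1B26 against MC26 4 rose and 8 fell. The median log2 fold changes were -0.10, -0.43 and -0.25, against 0.00, 0.00 and 0.00 over all tested genes, and they were the same when genes at 0 counts in a line were set to the limit of 3 counts. Of all tested genes 18.8%, 25.2% and 21.2% were called higher in these comparisons, and 19.9%, 23.7% and 18.4% lower.

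The syndecan SDC1, the main cell surface heparan sulfate proteoglycan of epithelia, rose from 315.5 ± 37.7 CPM in CT to 526.8 ± 58.6 for MC26 and 476.0 ± 18.9 for M1B26 (log2 fold changes 0.74 and 0.59). CD44, the hyaluronan receptor, and SDC3 rose in MC26 by 0.42 and 0.53. The testican SPOCK1 fell from 12.1 ± 0.574 CPM in CT to 3.58 ± 1.52 for MC26 and 1.55 ± 0.228 for M1B26. Versican (VCAN) and perlecan (HSPG2), large proteoglycans of the extracellular matrix, fell in M1B26 against CT by 1.89 and 1.09 on the log2 scale. COL18A1, the collagen XVIII chain, went the way of SRGN between the derived lines, at 3.45 ± 0.537 CPM in CT, 0.873 ± 0.0805 for MC26 and 2.59 ± 0.339 for M1B26 (1.56 between the derived lines, edgeR adjusted p = 0.000117). Lumican (LUM), a small keratan sulfate proteoglycan of connective tissue, rose in M1B26 from 0.108 ± 0.0321 CPM in CT to 5.11 ± 0.962 and was at 0.128 ± 0.159 in MC26. Glypican GPC4 was higher in M1B26 than in CT by 0.58 and than in MC26 by 0.68.

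Of 36 listed genes of chain synthesis and sulfation 34 were tested. In MC26 against CT 14 rose and 7 fell, in M1B26 against CT 13 rose and 7 fell, and in M1B26 against MC26 5 rose and 10 fell, with median log2 fold changes of 0.15, 0.03 and -0.04. Over all tested genes 38.7%, 48.9% and 39.5% were called in either direction. Within chondroitin synthesis, the polymerizing factor CHPF rose in both lines (0.70 and 0.71 against CT) and CHPF2 in MC26 (0.87), while CSGALNACT1, which starts chondroitin chains, fell from 4.61 ± 0.204 CPM in CT to 0.898 ± 0.209 for MC26 and 0.566 ± 0.0646 for M1B26. CHST15, which adds a further sulfate to chondroitin, fell in both lines, by 0.87 and 0.85. The sulfotransferase CHST11 rose in MC26 (0.65) and was lower in M1B26 than in MC26 (-0.85). PAPSS2, which makes the sulfate donor, rose in M1B26 from 1.99 ± 0.0842 CPM in CT to 7.99 ± 1.21 (log2 fold change 2.0, edgeR adjusted p = 1.53e-06). XYLT2, which attaches the first sugar to the core, rose in M1B26 by 1.12, and it lies on chromosome 17, whose 843 tested genes had a median log2 fold change of 0.48 in M1B26 against CT. The medians of the chromosomes of SAMSN1, LCP1 and SRGN (21, 13 and 10) were 0.00, -0.10 and -0.06 in that comparison.

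**Figure D3:**
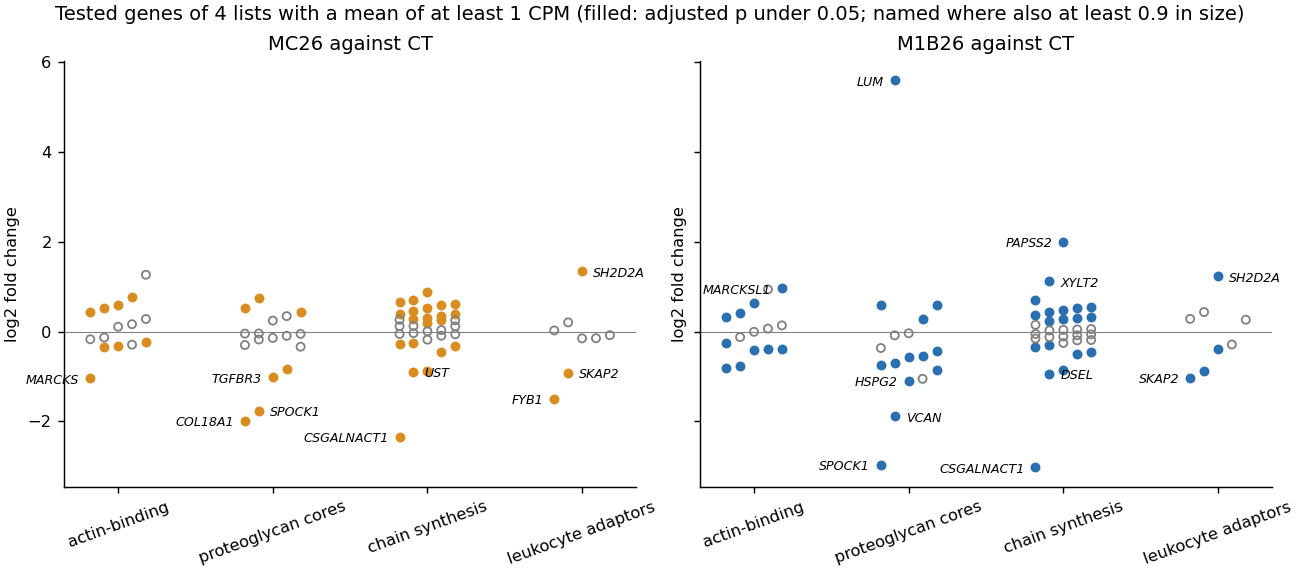
Log2 fold change of each tested gene at 1 CPM or more on average in the lists of actin-binding genes, proteoglycan cores, glycosaminoglycan chain synthesis genes and leukocyte adaptors, in MC26 (left) and M1B26 (right) against CT; filled points had an adjusted p under 0.05 and open points did not. Each list held genes on both sides of 0, with CSGALNACT1 and SPOCK1 low in both panels and LUM high in M1B26 (5.59).

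Actin-binding genes were read beside LCP1. Of 20 listed bundling and cross-linking genes 18 were tested, and 4 rose and 5 fell in MC26 against CT, 5 rose and 8 fell in M1B26 against CT, and 3 rose and 7 fell in M1B26 against MC26. The medians were 0.13, -0.07 and -0.20, and 38.7%, 48.9% and 39.5% of all tested genes were called in these comparisons. Fascin (FSCN1), the bundler of filopodia, rose in both lines (0.51 and 0.64 against CT), as did transgelin 2 (TAGLN2, 0.76 and 0.41), and alpha-actinin 1 (ACTN1) rose in MC26 from 527.1 ± 49.98 to 789.0 ± 39.2 CPM. IQGAP1, a scaffold that cross-links actin, fell in both (by 0.34 and 0.76), and EPS8 fell in M1B26 by 0.80. MARCKS, an actin cross-linker at the membrane, fell by 1.04 in MC26 and was 0.65 higher in M1B26 than in MC26, and its relative MARCKSL1 rose in M1B26 by 0.96. 

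Adaptor proteins of leukocyte signalling were read beside SAMSN1. Of 21 listed genes 12 were tested, 4 had 0 counts in all libraries, and 3 rose and 3 fell in MC26 against CT, 2 rose and 3 fell in M1B26 against CT, and 1 rose and 2 fell in M1B26 against MC26, of which 1 was left without MC26 replicate 2, MC26 replicate 3, M1B26 replicate 1 or M1B26 replicate 3. The medians were -0.03, 0.27 and -0.01, and 38.7%, 48.9% and 39.5% of all tested genes were called in these comparisons. SH2D2A, an SH2 adaptor of T cells, rose from 27.6 ± 5.60 CPM in CT to 70.7 ± 11.6 for MC26 and 65.2 ± 1.47 for M1B26 (edgeR adjusted p = 4.43e-05 and 5.45e-05). SKAP2 fell from 42.9 ± 5.07 CPM to 22.5 ± 1.45 and 20.9 ± 1.30. FYB1, an adaptor of T cells and platelets, fell in MC26 by 1.49 from 1.87 ± 0.0775 CPM in CT, and SH3BP2 fell in M1B26 by 0.38. The other rises against CT were of genes under the 1 CPM limit for naming, given here after their values were seen. GRAP rose from 0.0265 ± 0.0231 CPM in CT to 0.607 ± 0.388 for MC26 and 0.565 ± 0.0455 for M1B26. GRAP2 rose in MC26 from 0.0881 ± 0.0457 CPM in CT to 0.265 ± 0.0202.

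The cultures were checked for leukocytes with 15 genes that most white blood cells express. PTPRC, which encodes CD45 and defines the lineage, had 4 counts over the CT libraries, 0 over MC26 and 1 over M1B26. CD53, a tetraspanin of leukocytes, had 0, 3 and 4. CD48 and IKZF1 had 0 counts in all 9 libraries, and 6 of the 15 genes had 3 counts or fewer in every library. The summed level of the 15 genes was 136 to 178 CPM in CT, 214 to 235 in MC26 and 200 to 202 in M1B26, and most of it was RAC2. RAC2, a small GTPase best known from blood cells, rose from 98.9 ± 17.3 CPM in CT to 198.2 ± 10.7 for MC26 and 174.8 ± 2.02 for M1B26 (edgeR adjusted p = 4.93e-05 and 0.000129). ITGB2, the beta chain of the leukocyte integrins, fell from 34.8 ± 4.195 to 16.3 ± 1.42 and 12.6 ± 2.67 CPM, and LAPTM5, a lysosomal protein of blood cells, fell from 18.2 ± 1.06 to 2.67 ± 1.26 and 4.80 ± 0.722 CPM. CORO1A fell in MC26 by 0.75. Among the 7 tested genes, 3 rose and 3 fell in each comparison against CT, while 3 rose and 0 fell in M1B26 against MC26 (5 were called there without CT replicate 2). The median log2 fold changes were 1.0, 0.66 and 0.33. Of all tested genes 38.7%, 48.9% and 39.5% were called in these comparisons.

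The rises besides RAC2 were of genes at low level, HCLS1 and DOCK2 in MC26 against CT and HCLS1 and NCKAP1L in M1B26 against CT, named here after their values were seen. HCLS1 (9, 7 and 12 counts in CT) reached 19, 28 and 16 counts in MC26 and 40, 44 and 90 in M1B26. NCKAP1L had 3, 1 and 2 counts in CT, 2, 7 and 3 for MC26 and 13, 26 and 44 for M1B26. Their means in M1B26 were 1.201 ± 0.405 and 0.574 ± 0.262 CPM, and NCKAP1L was not called in MC26 against CT. DOCK2 was at 0.284 ± 0.0958 CPM in CT, 0.5997 ± 0.179 for MC26 and 0.414 ± 0.126 for M1B26, not called in M1B26 against CT.

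Markers of single blood lineages were read in the same way. Of 14 myeloid and mast cell genes 3 were tested and 5 had 0 counts in all libraries, and SPI1, which encodes the myeloid and B cell transcription factor PU.1, had 5, 1 and 5 counts over CT, MC26 and M1B26. CD68, a lysosomal gene, rose from 8.96 ± 1.39 CPM in CT to 22.5 ± 4.47 for MC26 and 26.7 ± 4.07 for M1B26. CD14, the lipopolysaccharide co-receptor, rose in M1B26 from 9.07 ± 2.05 to 38.5 ± 8.09 CPM and was at 13.2 ± 4.14 in MC26. CSF1R, the receptor of macrophage colony-stimulating factor, was at 5.51 ± 0.701 CPM in CT, 9.83 ± 4.80 for MC26 and 5.40 ± 0.204 for M1B26. Its log2 fold change was 0.82 in MC26 against CT (edgeR adjusted p = 0.0379) and -0.86 in M1B26 against MC26 (edgeR adjusted p = 0.0304), past the threshold in both although the lines overlapped. Without MC26 replicate 1 these were 0.39 and -0.43 and neither was called. Both calls were also lost without MC26 replicate 2 or any 1 M1B26 library, and the first without any 1 CT library or with the 6 libraries alone (edgeR adjusted p up to 0.181 and 0.134). In all, 2 of the 3 rose and 0 fell in each comparison against CT, and 1 rose and 1 fell in M1B26 against MC26. The share called over all tested genes was 38.7% in MC26 and 48.9% in M1B26 against CT, and 39.5% in M1B26 against MC26. The myeloid and mast cell list summed to 19.8 to 26 CPM in CT, 41.4 to 52.3 in MC26 and 62.6 to 84.6 in M1B26. Of 12 lymphoid genes 0 were tested, and their sum was at most 0.235 CPM in any library. The 10 erythroid and platelet genes, 3 of them tested, summed to 0.564 to 2.73 CPM.

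**Figure D4:**
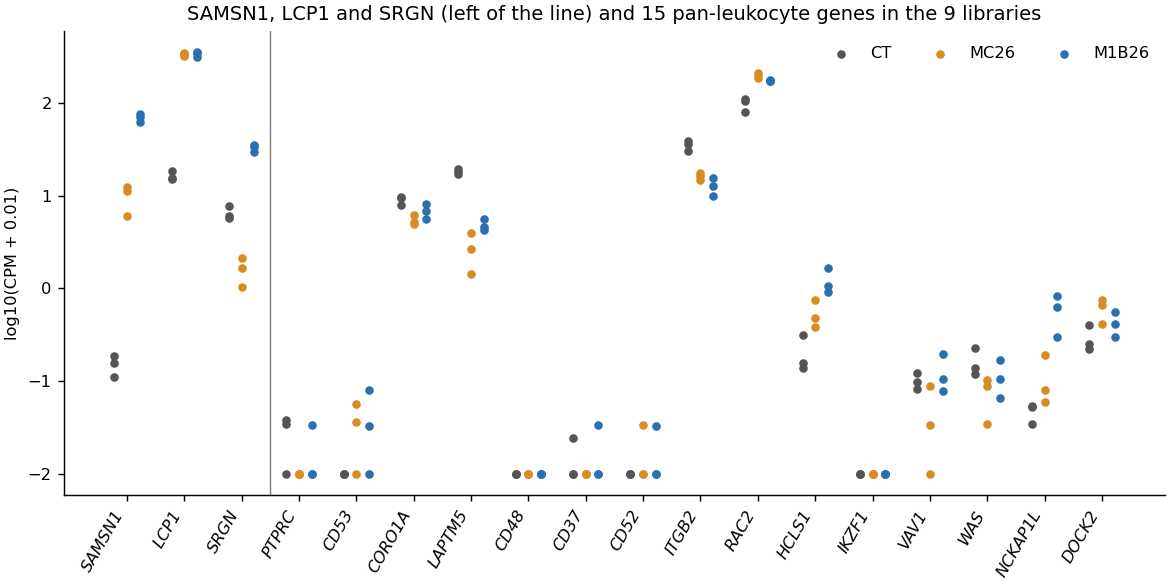
Log10 of CPM + 0.01 of SAMSN1, LCP1 and SRGN (left of the vertical line) and of the 15 pan-leukocyte genes, with 1 point per library, coloured by line. PTPRC, CD53, CD48 and IKZF1 lay at or near the bottom, which stands for 0 counts, in all 3 lines, whereas RAC2 was at 98.9, 198.2 and 174.8 CPM on average in CT, MC26 and M1B26.

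Markers of other cell types of the breast moved in both directions. Of 8 endothelial genes 4 were tested, and PECAM1 fell from 5.04 ± 0.277 CPM in CT to 0.268 ± 0.212 for MC26 and 0.897 ± 0.683 for M1B26, while EGFL7 rose from 3.75 ± 0.768 to 7.05 ± 1.03 and 12.2 ± 0.817. Their sum was 11.4 to 12.7 CPM in CT, 8.43 to 12.0 in MC26 and 16.5 to 17.9 in M1B26. Of 8 fibroblast genes 4 were tested, 0 were called in MC26 against CT and 2 rose in M1B26 against CT, LUM and COL1A1 (7.73 ± 0.873 to 15.4 ± 1.97 CPM). The other tested genes of the list, DCN (29.0 ± 0.732 CPM in CT and 13.96 ± 4.15 in M1B26) and PDGFRB, had log2 fold changes of -1.05 and -0.62 in M1B26 against CT and were not called. Without MC26 replicate 3, 3 fibroblast genes in MC26 and 4 in M1B26 were called against CT, counted in either direction. The fibroblast sum was 37.4 to 37.8 CPM in CT, 17.1 to 56.8 in MC26 and 28.5 to 39.9 in M1B26. Among the mammary epithelial genes, 3 rose and 4 fell in MC26 against CT. In M1B26, 3 rose and 3 fell against CT, and 3 rose and 3 fell against MC26. Beside the counts of the endothelial, fibroblast and mammary lists, 38.7%, 48.9% and 39.5% of all tested genes were called in these comparisons. The basal keratin KRT14 rose from 54.0 ± 10.4 CPM to 1097 ± 386 and 547.9 ± 82.3, and TP63, the transcription factor of basal cells, from 31.9 ± 3.55 to 78.0 ± 0.983 and 78.9 ± 4.47, while E-cadherin (CDH1) fell by 0.91 and 0.79. The part of these differences in the levels of SAMSN1, LCP1 and SRGN was not tested.

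The promoters of the 2 genes that rose in both derived lines are shown because both hold the PU box, the letters GAGGAAGT on either strand that PU.1 is known to bind. The motif was chosen after the sequences were seen. They are the 250 bases before the start site in RefSeq (GRCh38.p14), 5′ to 3′ along the gene, with the PU box in capitals.
LCP1, chr13:46182178-46182427, minus strand: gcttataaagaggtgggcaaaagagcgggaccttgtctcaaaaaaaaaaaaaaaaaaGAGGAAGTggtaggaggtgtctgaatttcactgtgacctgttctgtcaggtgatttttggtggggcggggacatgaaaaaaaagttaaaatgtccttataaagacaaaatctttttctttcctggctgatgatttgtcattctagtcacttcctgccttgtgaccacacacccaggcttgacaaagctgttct
SAMSN1, chr21:14546316-14546565, minus strand: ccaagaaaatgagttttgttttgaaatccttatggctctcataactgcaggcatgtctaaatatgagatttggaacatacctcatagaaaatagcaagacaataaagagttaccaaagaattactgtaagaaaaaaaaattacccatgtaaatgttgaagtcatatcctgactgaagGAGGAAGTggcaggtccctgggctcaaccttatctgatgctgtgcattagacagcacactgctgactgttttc
The box began 193 bases before the start of LCP1 and 73 before the canonical start of SAMSN1. Of the 35116 promoter windows of 300 bases in RefSeq, 2.59% held it. SAMSN1 has 3 other starts there, without the box in their windows, and of 4 SASH1 starts 1 held it. The windows of PLS1 (3), PLS3 (2) and SASH3 (1) did not. SRGN had 0 starts in the promoter set used, so its promoter was not searched. A STAT type motif, TTCNNNGAA, was in 7.66% of all windows and in none of LCP1 or SAMSN1, and the AP-1 type motif TGANTCA was in 7.71% of all windows and in 1 SAMSN1 window, at another start. The 3 motifs did not overlap in these windows. These matches describe letters and not binding.

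Genes beside the 3 on the chromosome were read within 1000000 bases, measured between the lower coordinates of the genes. Around SAMSN1, 34 genes are annotated and 3 were tested, of which 2 rose in MC26 and 3 in M1B26 against CT and 0 fell, beside 18.8% and 25.2% of all tested genes that were higher. RBM11, an RNA-binding protein gene 269.1 kb away, rose from 1.28 ± 0.0962 CPM in CT to 2.16 ± 0.0779 for MC26 and 4.93 ± 0.387 for M1B26 (log2 fold changes 0.77 and 1.96, edgeR adjusted p = 0.00174 and 1.75e-06), in the same order of lines as SAMSN1. NRIP1, a nuclear receptor co-regulator 476.0 kb away on the other side, rose by 0.77 and 0.72. HSPA13, the nearest tested gene at 114.1 kb, changed by -0.13 in MC26, which was not called, and by 0.39 in M1B26 (edgeR adjusted p = 0.034), a call lost with total-count scaling and without CT replicate 1, CT replicate 3 or M1B26 replicate 3 (edgeR adjusted p up to 0.144).

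Around LCP1, 37 genes are annotated and 9 were tested. In MC26 against CT 0 rose and 2 fell, and in M1B26 against CT 1 rose and 2 fell, beside 38.7% and 48.9% of all tested genes called. KCTD4, 933.1 kb away, fell by 1.30 and 1.64. LRCH1, the nearest tested gene with a higher coordinate, changed by 0.11 and 0.06, neither called. CPB2-AS1 overlaps LCP1 on the opposite strand by 965 exonic bases, and it had 0.239 ± 0.180 CPM in CT, 0.272 ± 0.131 for MC26 and 0.427 ± 0.126 for M1B26. As strandedness of the counting is not stated, reads of the overlap cannot be assigned. The level counted for CPB2-AS1 was far below that of LCP1, but it has the same limit.

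Around SRGN, 48 genes are annotated and 19 were tested. In MC26 against CT 7 rose and 3 fell, in M1B26 against CT 3 rose and 4 fell, and in M1B26 against MC26 3 rose and 7 fell. Of all tested genes 18.8%, 25.2% and 21.2% were called higher in these comparisons, and 19.9%, 23.7% and 18.4% lower. TSPAN15, a tetraspanin gene 363.4 kb away, had 2.7, 2.75 and 2.61 CPM in CT, 1.44, 1.07 and 0.941 for MC26 and 5.00, 4.35 and 4.98 for M1B26. It thus followed the order of SRGN, lowest in MC26 (log2 fold change -1.22, edgeR adjusted p = 0.000297) and highest in M1B26 (0.83, edgeR adjusted p = 0.00116), with no overlap between lines. The 2 nearest tested genes did not: KIFBP changed by -0.27 and -0.20 and VPS26A by -0.01 and -0.13, and of these only KIFBP in MC26 was called (edgeR adjusted p = 0.0183), not so without CT replicate 1, MC26 replicate 2 or MC26 replicate 3 (up to 0.0702). Other neighbours called at 1 or more in size went otherwise. HKDC1, 132.2 kb away, changed by 1.72 in MC26 against CT and by -1.31 in M1B26 against MC26, where the lines overlapped. COL13A1 changed by 1.26 in MC26 against CT and MACROH2A2 by -1.22 in M1B26 against MC26. STOX1 changed by -1.33 in MC26 and -1.43 in M1B26 against CT.

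**Figure D5:**
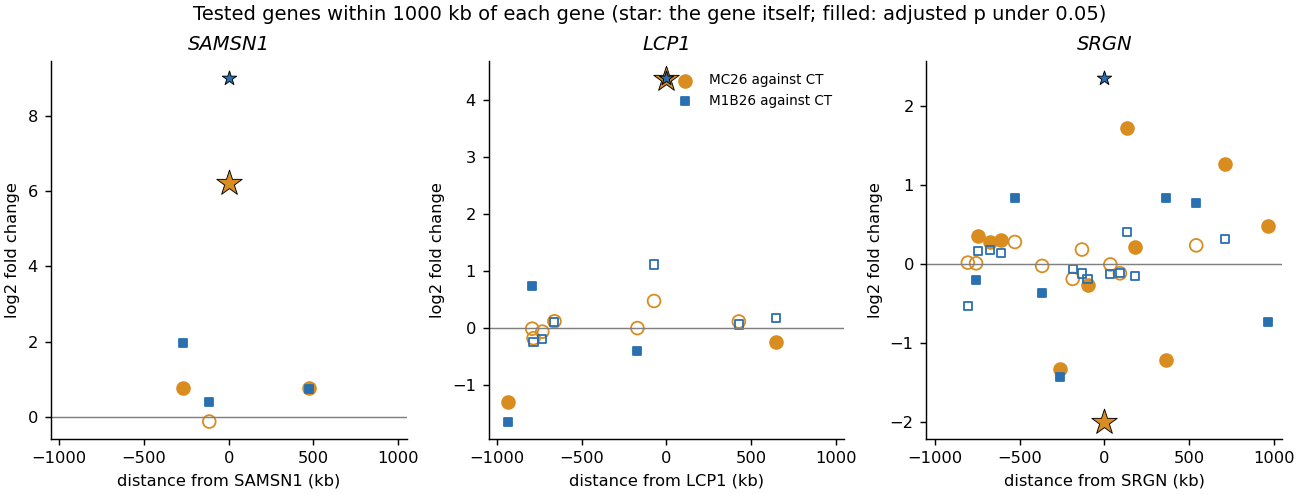
Log2 fold change of tested genes within 1000 kb of SAMSN1, LCP1 and SRGN (stars), against the distance in kb between lower coordinates; circles are MC26 and squares M1B26 against CT, and filled symbols had an adjusted p under 0.05. In each panel and line the star is farther from 0 than any neighbour, and the circle and square of KCTD4 are the lowest beside LCP1 (-1.30 and -1.64).

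Likeness to each gene was measured as the root-mean-square difference of centred log2 CPM over the 9 libraries, among 12866 genes that averaged 1 CPM or more, as a description. Nearest to SAMSN1 were ALDH1A1 (0.688), CHRNA9 (1.05) and ABCC9 (1.13), against a median of 3.58 over all genes compared. ALDH1A1, a retinaldehyde dehydrogenase used as a marker of stem-like cells, had 0 counts in all CT libraries, 1.02, 0.837 and 1.01 CPM in MC26 and 10.6, 20.1 and 6.18 in M1B26. CHRNA9, a nicotinic receptor subunit, was at 3.18 ± 0.412, 76.7 ± 12.1 and 218.0 ± 15.8 CPM in CT, MC26 and M1B26. Nearest to LCP1 were the adhesion molecule NRCAM (0.342), GSDMC (0.386) and DYNC1I1 (0.432), with a median of 2.06, and NRCAM was at 5.88 ± 0.655, 74.4 ± 4.94 and 76.6 ± 6.97 CPM. Nearest to SRGN were CACNG8 (0.467), SLC12A7 (0.534) and IGFBP4 (0.548), with a median of 1.83, and IGFBP4, which binds insulin-like growth factors, was at 4.86 ± 0.444, 2.05 ± 0.488 and 18.5 ± 2.78 CPM. IGFBP4 lies on chromosome 17, whose tested genes had a median log2 fold change of 0.48 in M1B26 against CT and 0.48 against MC26. Between the 3 genes the difference was 1.79 for SAMSN1 and LCP1, 2.69 for LCP1 and SRGN and 3.37 for SAMSN1 and SRGN, so that SRGN was the least like the others.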

How the data were processed

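Poly-A RNA was sequenced in 9 libraries. The authors deposited raw counts per gene symbol, with reads aligned by STAR 2.7.3a to GRCh38 and GENCODE v33. Salmon 1.1.0 is also named in the methods for protein-coding genes, but the counts are whole numbers and cover non-coding genes too. Which program counted the reads, whether it used strand and how it treated reads with several alignments is not given in the sources used here. Groups and replicate numbers came from the sample titles.

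Testing used edgeR 4.0.16 under R 4.3.3 (TMM, filterByExpr with a minimum count of 10, glmQLFit and glmQLFTest on all 9 libraries with line as the only term, 2-sided, Benjamini-Hochberg over 15717 genes, threshold 0.05). TMM factors ran from 0.969 to 1.07, and the biological coefficient of variation was 10.4%. CPM used TMM-scaled library sizes. The limit of detection was 3 counts, and intervals and limits cover counting error only where they are counts. Exonic lengths and positions came from GENCODE v44, in which 36923 symbols with 98.8% of counts matched a unique gene, and promoters from RefSeq. The scripts were tested on simulated data. The members, lists and tests were chosen with earlier results of these data known. Named genes were the 7 members, up to 3 called genes per direction, list and comparison with a mean of at least 1 CPM, PTPRC, CD53, EPCAM and KRT5, the 3 genes most like each of SAMSN1, LCP1 and SRGN, and neighbours called with a log2 fold change of 1 or more in size or nearest on either side. Alternatives were DESeq2 1.42.0, RLE or total-count scaling, no filter, a fit on just the 6 libraries of a comparison, a block for the replicate number, each library left out in turn and a window of 500000 bases.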

Additional observations from a re-analysis of the deposited data

Results flagged for a closer look

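The changes of MC26 and M1B26 against CT differed from each other for 3 genes that were not chosen for their size, by the direct edgeR test of M1B26 against MC26, which is the difference of the 2 changes. That test called 39.5% of all tested genes, so such a difference is not particular to these 3. For PLS1 the difference was 0.3816 on the log2 scale (edgeR adjusted p = 0.00451), with a fall in MC26 that M1B26 did not show at this threshold. For EPCAM it was 2.2842 (edgeR adjusted p = 5.22e-06), with EPCAM at 14.8 ± 3.84 CPM in MC26, 70.4 ± 4.45 in CT and 72.1 ± 11.9 in M1B26. For KRT5 it was -0.3472 (edgeR adjusted p = 0.0154), a call lost without M1B26 replicate 2 or M1B26 replicate 3, where the adjusted p reached 0.0616. SASH1 and PLS3 showed no such difference past the threshold. With 3 libraries a line, single libraries far from the others were not searched for.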

How the results depend on the processing

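Fold changes of the 6 genes with counts kept their direction under all 15 alternatives, except for 3 near 0 that took either sign, PLS3 in M1B26 against CT (-0.05 to 0.12) and SASH1 (-0.05 to 0.12) and LCP1 (-0.02 to 0.06) in M1B26 against MC26. SAMSN1 ranged from 6.0 to 6.47 in MC26 and from 8.79 to 9.15 in M1B26 against CT, LCP1 from 4.29 to 4.45 and from 4.29 to 4.46, and SRGN from -2.25 to -1.75 and from 2.26 to 2.47. PLS1 stayed past the threshold in both of its comparisons. PLS3 in MC26 against CT, 0.16 as reported, ranged from 0.11 to 0.25 (0.2483) over the fits without 1 library each and passed the threshold without CT replicate 2; the cause was not tested. With total counts alone the mean of SASH1 in CT was 32.43 CPM, that of PLS1 in MC26 28.95 and that of PLS3 in M1B26 219.1, each by more than 1 SD from the value reported. The replicate numbers showed no steady pairing of the derived lines with CT. Same-numbered libraries of M1B26 and CT correlated in their deviations at -0.013, 0.002 and -0.002, and those of MC26 and CT at -0.114, 0.106 and 0.024. Those of M1B26 and MC26 correlated at 0.081, 0.042 and 0.136, where every library correlated best with its own number. Whether the derived lines were paired is thus not settled. With the replicate block PLS1 changed by -0.49 in MC26 against CT (edgeR adjusted p = 0.0027), and 5879, 7513 and 6009 genes were called in place of 6081, 7688 and 6215. Among named genes the block ended the calls of HSPA13 in M1B26 against CT (edgeR adjusted p = 0.0504) and of LASP1 in M1B26 against MC26 (edgeR adjusted p = 0.0513). Calls among the 182 listed genes ran from 55 to 71, from 62 to 83 and from 43 to 62 over the alternatives. Among named genes, calls lost under 1 to 9 alternatives were those of CSF1R and KIFBP in MC26 against CT, of CORO1A, KRT8, FYB1, FLNA, TEK and HSPA13 in M1B26 against CT, and of LAPTM5, CSF1R, PECAM1, KRT5, LAT2, LASP1, CSGALNACT1 and HKDC1 in M1B26 against MC26, and without MC26 replicate 3 the fibroblast genes called against CT became 3 in MC26 and 4 in M1B26, in either direction. Within 500000 bases, 5, 3 and 5 genes around SRGN were called in place of 10, 7 and 10, and around LCP1 0, 1 and 1 in place of 2, 3 and 3.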
